A study of Mus musculus with 24 samples.

Results

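The 39 genes described here are the coagulation and fibrinolysis genes, that is, the factors that make and stabilise fibrin, the inhibitors that hold the cascade back, and the enzymes, receptors and inhibitors that govern the dissolution of a clot. They were chosen by name from known roles, and all 39 were found among the 54532 genes of the count table. By role, 21 are procoagulant, 9 anticoagulant and 6 belong to fibrinolysis or its inhibition, and 3 (Hrg, Fgl1 and Gas6) fall outside these classes. RNA-seq had been run on livers of male mice aged 8 to 10 weeks and fasted for 24 h, with 4 mice in each of 6 groups. Rab30KO mice carried a whole-body deletion of exon 4 of Rab30, and Rab30 Ctrl mice were wild-type littermates of theirs. Rab30L-/- mice lost Rab30, Cpt2L-/- mice lost Cpt2, and DKO mice lost both, through a Cre transgene driven by the albumin promoter. This transgene was used to delete the genes in hepatocytes. The floxed controls (ff;ff) carried the floxed alleles of both genes without Cre and were littermates of the DKO mice. They are not stated to be littermates of Rab30L-/- or Cpt2L-/- mice, so genotype and breeding colony cannot be told apart in those comparisons. The same holds for DKO against Rab30L-/- livers, for DKO against Cpt2L-/- livers and for the interaction of both losses.

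Most clotting factors circulate as inactive precursors that hepatocytes secrete. Tissue factor (F3) with factor VII starts the cascade, thrombin made from prothrombin (F2) cuts fibrinogen into fibrin, and factor XIII crosslinks it. Antithrombin (Serpinc1), the protein C system and tissue factor pathway inhibitor restrain thrombin formation, and plasmin made from plasminogen (Plg) dissolves fibrin. Prothrombin, factors VII, IX and X and proteins C, S and Z need gamma-carboxylation by Ggcx, which depends on vitamin K recycled by Vkorc1. Several members are made chiefly by other cells, such as Vwf, F8, Thbd and Tfpi by endothelium and Plaur by myeloid cells. Fibrinogen is also an acute-phase protein, whose genes hepatocytes raise in inflammation. Rab30 is a Golgi-associated GTPase, and Cpt2 is needed for long-chain fatty acids to be oxidised in mitochondria.

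Libraries held 11801027 to 24497738 counts (median 14358966), and all 36 pairs of libraries within a group differed by more than counting noise. Counts over a whole gene include the exons that were not deleted, and they followed the labels in part. Cpt2 stood at 96.1 to 120 CPM (counts per 1000000 after TMM scaling) in the libraries labelled DKO against 170 to 268 CPM in those labelled Rab30L-/-, but at 95.3 to 167 CPM in those labelled Cpt2L-/- against 128 to 139 CPM in floxed controls. Rab30 stood at 10.4 to 26.6 CPM in Rab30L-/- livers and 25.9 to 44.6 CPM in floxed controls, at 101 to 231 CPM in DKO and 122 to 188 CPM in Cpt2L-/- livers, and at 5.39 to 17.4 CPM in Rab30KO and 6.64 to 30.1 CPM in Rab30 Ctrl livers. Groups are therefore named by their labels. Albumin, the defining transcript of the labelled tissue, stood at 27691 to 101888 CPM over the 24 libraries. The 10 endothelial marker genes summed to 228 to 344 CPM in the floxed controls and the 3 liver-specific knockout groups, and to 367 to 475 CPM in the whole-body knockouts and their controls. In bulk tissue, fewer cells of a type and less RNA per cell cannot be told apart. In Rab30L-/- library 2 the 10 acute-phase protein genes summed to 21858 CPM, against 5284 to 7442 CPM in the other 3 of its group. This library was highest of its group in 19 of the 24 members made chiefly by hepatocytes, as was DKO library 2 in its own group, while DKO library 3 and Rab30KO library 1 were each lowest in 17 and Cpt2L-/- library 4 in 15.

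Several members are neighbours in the genome. The fibrinogen genes Fgg, Fga and Fgb lie within 42.1 kb on chromosome 3 (83007724 to 83049863, GRCm38), and F7, F10 and Proz within 49.99 kb on chromosome 8 (13026034 to 13076026). Gas6, on the minus strand of the same chromosome, has its 3′ end 389.3 kb beyond Proz. F11 and Klkb1 adjoin on chromosome 8 (45241174 to 45294859), and Hrg, Kng2 and Kng1 span 131.0 kb of chromosome 16 (22951072 to 23082078). The 250 bases before the RefSeq start are printed for the fibrinogen genes, for F7, F10 and Proz, for Serpind1, which showed the largest fall among the members in Cpt2L-/- livers, and for Gas6, which rose there. Each is from GRCm38.p6, read 5′ to 3′ on the strand of the gene, with matches to the searched motifs in capitals.
Fga, chr3:83025903-83026152, plus strand: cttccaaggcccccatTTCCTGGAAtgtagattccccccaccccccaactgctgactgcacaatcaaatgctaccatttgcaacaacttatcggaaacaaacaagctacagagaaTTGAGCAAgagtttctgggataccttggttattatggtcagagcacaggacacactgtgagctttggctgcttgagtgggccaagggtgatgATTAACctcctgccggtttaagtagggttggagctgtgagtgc
Fgb, chr3:83049864-83050113, minus strand: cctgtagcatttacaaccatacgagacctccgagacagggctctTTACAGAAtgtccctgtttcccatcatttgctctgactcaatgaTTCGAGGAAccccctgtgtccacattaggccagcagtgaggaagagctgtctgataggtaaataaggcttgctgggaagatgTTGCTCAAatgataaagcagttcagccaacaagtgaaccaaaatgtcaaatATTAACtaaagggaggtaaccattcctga
Fgg, chr3:83007474-83007723, plus strand: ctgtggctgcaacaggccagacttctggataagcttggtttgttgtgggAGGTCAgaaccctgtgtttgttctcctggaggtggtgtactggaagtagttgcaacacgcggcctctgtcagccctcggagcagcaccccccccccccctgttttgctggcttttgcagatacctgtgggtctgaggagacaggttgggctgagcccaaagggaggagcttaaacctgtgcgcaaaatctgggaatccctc
F7, chr8:13025784-13026033, plus strand: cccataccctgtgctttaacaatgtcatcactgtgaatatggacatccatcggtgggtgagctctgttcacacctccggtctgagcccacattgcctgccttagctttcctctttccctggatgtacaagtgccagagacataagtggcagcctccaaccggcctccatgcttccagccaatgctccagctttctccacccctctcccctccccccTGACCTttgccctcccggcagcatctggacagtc
F10, chr8:13037058-13037307, plus strand: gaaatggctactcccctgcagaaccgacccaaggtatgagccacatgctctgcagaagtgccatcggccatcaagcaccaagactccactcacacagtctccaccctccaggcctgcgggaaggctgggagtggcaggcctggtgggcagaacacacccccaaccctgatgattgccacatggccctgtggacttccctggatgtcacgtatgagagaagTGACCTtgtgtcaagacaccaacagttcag
Proz, chr8:13060658-13060907, plus strand: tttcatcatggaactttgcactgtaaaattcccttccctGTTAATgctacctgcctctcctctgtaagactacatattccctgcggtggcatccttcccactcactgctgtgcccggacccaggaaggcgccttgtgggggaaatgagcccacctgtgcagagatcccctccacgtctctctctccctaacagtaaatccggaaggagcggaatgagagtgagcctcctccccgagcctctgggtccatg
Serpind1, chr16:17331121-17331370, plus strand: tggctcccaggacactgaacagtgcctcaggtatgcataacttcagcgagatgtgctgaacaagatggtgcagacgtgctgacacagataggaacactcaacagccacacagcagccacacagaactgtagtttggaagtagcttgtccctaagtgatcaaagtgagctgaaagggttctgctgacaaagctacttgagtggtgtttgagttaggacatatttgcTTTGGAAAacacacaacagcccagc
Gas6, chr8:13494536-13494785, minus strand: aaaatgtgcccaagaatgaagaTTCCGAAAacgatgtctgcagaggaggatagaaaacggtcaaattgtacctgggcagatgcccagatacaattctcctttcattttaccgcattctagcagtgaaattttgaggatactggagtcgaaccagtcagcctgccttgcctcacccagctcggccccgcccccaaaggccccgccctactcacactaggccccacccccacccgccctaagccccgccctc

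The motifs were searched on both strands, and a match describes letters, not a bound site. They were GTTAAT (part of the HNF1 site), CAAAGTCCA (HNF4), AGGTCA (the nuclear receptor core site), TTNNGNAA (C/EBP), TTCNNNGAA (STAT) and TATAAA. Promoter windows were found for 30 members (32 windows, since F13a1 and Tfpi had more than 1), and none of the 41 matches overlapped another. No window was found for Fgl1, Kng1, Plat, Plau, Plg, Proc, Serpina10, Thbd and Vwf. GTTAAT was in the windows of 4 members (Fga, Fgb, F13b and Proz), or 12.5% of their windows, against 6.43% of 32851 windows of all genes. AGGTCA was in those of 8 members, 25% against 14.0%. In F10, F2, F7 and F5 this match began 30, 33, 34 and 57 bases before the start, in each as its reverse complement. In Kng2, Serpinf2 and Fgg it began 56, 126 and 201 bases before the start as AGGTCA itself. In Procr it began 218 bases before, as its reverse complement. TTNNGNAA was in 50% of the members' windows against 36.8% of all, TTCNNNGAA in 12.5% against 7.02%, TATAAA in 6.25% against 12.4%, and CAAAGTCCA in none against 0.384%. Fga and Fgb carried GTTAAT, TTNNGNAA and TTCNNNGAA each, with the GTTAAT match beginning 43 and 29 bases before the start, whereas Fgg carried AGGTCA alone.

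Per length, fibrinogen led the members in floxed controls. The deposited FPKM of Fgg was 1011 ± 214 (SD, n = 4), that of Fga 889 ± 175 and that of Fgb 766 ± 152, and these neighbours in the order did not differ beyond their spread. Hrg, Kng1 and Plg followed at 603 ± 88.3, 584 ± 112 and 566 ± 106 FPKM, then prothrombin (F2) at 373 ± 54.6 FPKM. Proc, F12, Serpind1 and Serpinf2 lay at 318 to 262 FPKM, and antithrombin (Serpinc1) came next at 213 ± 14.3 FPKM. At the other end, the endothelial factors F8 and Vwf stood at 1.69 ± 0.394 and 0.576 ± 0.271 FPKM and tissue plasminogen activator (Plat) at 0.0958 ± 0.0286 FPKM. The A chain of factor XIII (F13a1), a product of myeloid cells and platelets, was at 0 CPM in 10 of 24 libraries and never exceeded 0.986 CPM. It passed no filter on low counts and was not tested.

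The members summed to 21828 ± 2446 CPM (SD, n = 4) in floxed controls, and to 9935 ± 1988 CPM in Cpt2L-/- livers and 9744 ± 1244 CPM in DKO livers. As a share of each library's raw counts, without TMM scaling, they averaged 2.03% in floxed controls (1.78% to 2.19%), 1.11% in Cpt2L-/- livers (0.958% to 1.38%) and 1.03% in DKO livers (0.951% to 1.17%). They summed to 28524 ± 7287 CPM in Rab30L-/- livers, 21451 ± 2299 CPM in Rab30KO livers and 21140 ± 1979 CPM in Rab30 Ctrl livers. The highest library with the Cpt2 knockout (12752 CPM) thus lay below the lowest without it (18097 CPM). Fibrinogen made up 7574 ± 1359 CPM of the sum in floxed controls and 2633 ± 1395 CPM in Cpt2L-/- livers, and the 36 other members 14254 ± 1120 and 7302 ± 595 CPM.

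**Figure D1:**
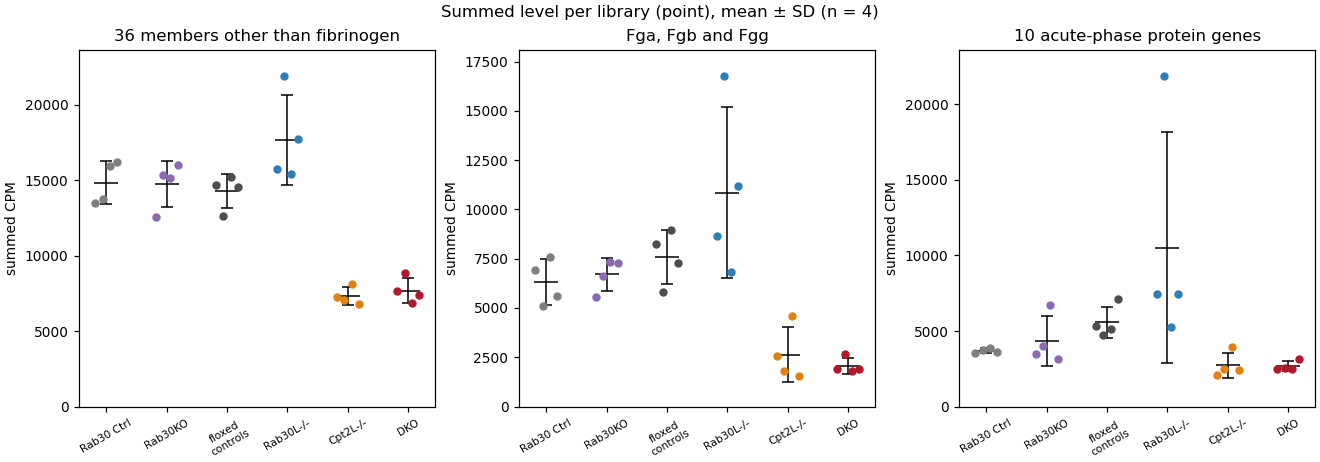
Summed CPM per library (points, with mean ± SD, n = 4 livers) in the 6 groups, for the 36 members other than fibrinogen, for Fga, Fgb and Fgg, and for 10 acute-phase protein genes. All 8 Cpt2L-/- and DKO libraries lie below the other 16 for the members other than fibrinogen and for fibrinogen, and 1 Rab30L-/- library stands far above the rest for the acute-phase genes, at 21858 CPM.

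The comparison of Cpt2L-/- livers with floxed controls asked how loss of hepatic fatty acid oxidation altered the fasted transcriptome. Of 36 members tested, 23 fell and 3 rose (F2r, Gas6 and Plaur) at an adjusted p under 0.05 and a change of at least 1.2-fold in edgeR's test. The background was 23.8% of all 13270 genes called, with 11.9% called lower and 11.9% called higher. The median log2 fold change of the tested members was -0.82, against a median near 0 for all genes. Of the 24 members made chiefly by hepatocytes 22 fell and none rose, with a median of -1.19, and the exceptions were F12 and Fgl1. Of 8 other hepatocyte markers 3 fell beside them, and their summed level, most of it albumin, was 52434 to 66644 CPM in Cpt2L-/- livers against 107575 to 142135 CPM in floxed controls. Alb itself was called, at -1.41 on the log2 scale (edgeR adjusted p = 0.00016). The part of these markers in the result was not tested. Of 5 endothelial members tested 1 rose and none fell. The falls ran through every class of protein: 14 of 20 procoagulant members, 5 of 8 anticoagulant members and 3 of 5 members of fibrinolysis and its inhibition fell.

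DKO livers were compared with Rab30L-/- livers for the same loss of Cpt2 in the absence of Rab30, and these livers share no library with the comparison above. DKO and Rab30L-/- mice are not stated to be littermates, so genotype and breeding colony cannot be told apart here either. Here 25 of 36 members fell and none rose, with a median log2 fold change of -1.04. Among all 13292 genes 30.7% were called and 15.8% were called lower. Of the 8 other hepatocyte markers 4 fell, with a summed level of 70900 to 90677 CPM in DKO and 89381 to 104522 CPM in Rab30L-/- livers, which overlapped, and Alb was at -0.37 (edgeR adjusted p = 0.133). Without Rab30L-/- library 2, the median was -0.89. The fall was seen in both comparisons for 22 of the 36 members tested in both (61.1%), against 6.71% of all 12970 genes tested in both. These 22 were 95.7% of the members lower in Cpt2L-/- livers and 88.0% of those lower in DKO livers, and for all genes the like shares were 55.1% and 41.5%. F9 fell in the former only, and F12, Fgl1 and Ggcx in the latter only, without a test of the difference between the comparisons. Against the floxed controls, which also serve the Cpt2L-/- comparison, 20 members fell in DKO livers and 1 (Gas6) rose, with a median of -0.67, where 16.1% of all genes were called and 8.24% were called lower.

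**Figure D2:**
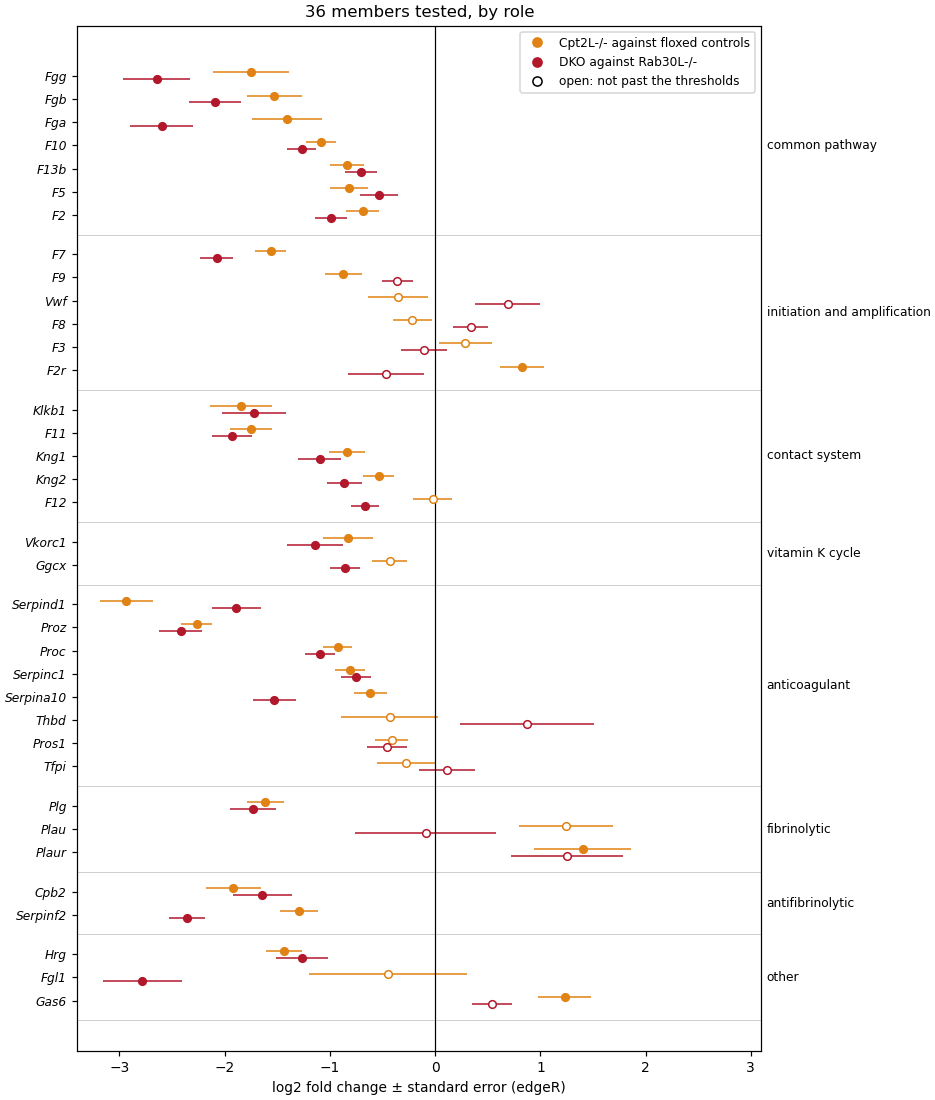
Log2 fold change with its standard error (edgeR) of the 36 members tested in both comparisons, grouped by role, for Cpt2L-/- against floxed controls (orange) and DKO against Rab30L-/- (red), 4 livers per group. Filled points passed the thresholds. All 7 common-pathway members are filled and left of 0 in both comparisons, whereas Vwf, F8, F3 and Tfpi are open in both.

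The fibrinogen chains fell together. Fga, the alpha chain, read 2438, 2171, 3350 and 2554 CPM in floxed controls, 987, 613, 1848 and 563 CPM in Cpt2L-/- livers, 3034, 6200, 2303 and 3749 CPM in Rab30L-/- livers and 541, 830, 571 and 586 CPM in DKO livers. Fgb, the beta chain, read 3283, 2150, 3354 and 2675 CPM, then 1033, 785, 1563 and 635 CPM, 3313, 6001, 2904 and 4446 CPM, and 916, 1236, 842 and 913 CPM in the same order of groups. Fgg, the gamma chain, read 2543, 1491, 2237 and 2049 CPM, then 569, 386, 1205 and 346 CPM, 2290, 4549, 1606 and 3012 CPM, and 448, 625, 374 and 382 CPM. For all of them, every Cpt2L-/- library lay below every floxed control and every DKO library below every Rab30L-/- library. Cpt2L-/- library 3 was the highest of its group for each chain, as it was for the summed acute-phase genes (3923 CPM against 2083 to 2505 CPM in the other 3). Their part in the result was not tested.

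In Cpt2L-/- livers the log2 fold changes were -1.41 for Fga (SE 0.34, edgeR adjusted p = 0.00955), -1.53 for Fgb (SE 0.26, adjusted p = 0.000932) and -1.75 for Fgg (SE 0.36, adjusted p = 0.00466). In DKO against Rab30L-/- livers they were -2.60 (SE 0.30, adjusted p = 0.00016), -2.09 (SE 0.24, adjusted p = 0.000141) and -2.65 (SE 0.32, adjusted p = 0.000244). In DKO livers against floxed controls they were -2.06 (SE 0.20, adjusted p = 8.14e-05), -1.56 (SE 0.20, adjusted p = 0.000384) and -2.19 (SE 0.22, adjusted p = 9.37e-05). With no filter on low counts, Fga and Fgg lost the call in Cpt2L-/- livers (adjusted p = 0.0872 and 0.0555). The chains kept unequal proportions within a library. The ratio of Fga to Fgb counts averaged 0.645 ± 0.0397 (SD, n = 4; range 0.591 to 0.678) in DKO livers, below every other library of the series, since the lowest elsewhere was 0.742 in a floxed control. The group means elsewhere ran from 0.834 in Rab30 Ctrl to 0.951 ± 0.169 in Cpt2L-/- livers. Fgg relative to Fgb was 0.465 ± 0.040 in DKO livers, 0.590 ± 0.124 in Cpt2L-/- livers and 0.725 ± 0.0532 in floxed controls. These ratios are a description, with no test.

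**Figure D3:**
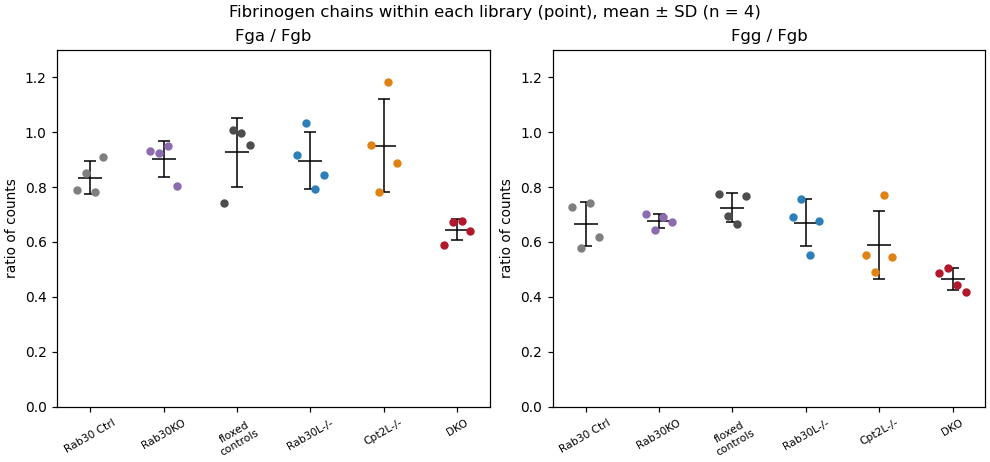
Ratio of the counts of Fga to Fgb and of Fgg to Fgb within each library (points), with mean ± SD (n = 4 livers) in the 6 groups. The 4 DKO libraries lie at 0.591 to 0.678 for Fga over Fgb, below all the others.

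The other factors of the common pathway fell by smaller steps. Prothrombin (F2) read 1362, 1621, 1853 and 1908 CPM in floxed controls and 962, 1018, 1192 and 1047 CPM in Cpt2L-/- livers. It read 1978, 2237, 1691 and 1645 CPM in Rab30L-/- livers and 925, 978, 894 and 1003 CPM in DKO livers. In neither comparison did the groups overlap. The log2 fold change of F2 was -0.69 (SE 0.16, edgeR adjusted p = 0.00691) in Cpt2L-/- livers and -0.99 (SE 0.15, adjusted p = 0.000763) in DKO against Rab30L-/- livers. Factor X (F10), which converts prothrombin to thrombin, changed by -1.08 and -1.27 in these comparisons on the log2 scale, its cofactor factor V (F5) by -0.82 and -0.54, and the B chain of factor XIII (F13b) by -0.84 and -0.71, and each passed the thresholds in both.

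Of 6 initiation and amplification factors, 2 fell (F7 and F9) and 1 rose (F2r) in Cpt2L-/- livers, and 1 (F7) fell in DKO against Rab30L-/- livers. Factor VII (F7), the protease that pairs with tissue factor, read 111, 94.1, 122 and 124 CPM in floxed controls, 34.3, 44.6, 39.1 and 35.5 CPM in Cpt2L-/- livers, 112, 172, 171 and 148 CPM in Rab30L-/- livers and 35.0, 39.9, 29.9 and 37.6 CPM in DKO livers. The highest library with the Cpt2 knockout stood at 44.6 CPM and the lowest of the other 16 libraries at 79.4 CPM. Its log2 fold change was -1.56 (SE 0.15, edgeR adjusted p = 1.2e-05) in Cpt2L-/- livers, -2.08 (SE 0.16, adjusted p = 1.56e-05) in DKO against Rab30L-/- livers and -1.67 (SE 0.15, adjusted p = 4.05e-05) in DKO livers against floxed controls. Factor IX (F9), a further hepatocyte protease, fell by 0.87 on the log2 scale in Cpt2L-/- livers (adjusted p = 0.00272) and was at -0.36 in DKO against Rab30L-/- livers (adjusted p = 0.0885), or -0.46 and called without Rab30L-/- library 3 (adjusted p = 0.0262). Tissue factor (F3), F8 and Vwf had log2 fold changes between -0.35 and 0.69 in these comparisons and passed the thresholds in neither.

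F2r, the thrombin receptor PAR1, rose in Cpt2L-/- livers. It read 26.1, 16, 16.1 and 15 CPM in floxed controls, 25.7, 41.0, 30.6 and 33.2 CPM in Cpt2L-/- livers, 30.5, 27.7, 13.5 and 44.1 CPM in Rab30L-/- livers and 15.6, 16.9, 31.6 and 19.7 CPM in DKO livers. Floxed control 1 overlapped the Cpt2L-/- range, and the Rab30L-/- libraries spread over more than the range of the other groups. The log2 fold change was 0.83 (SE 0.21, edgeR adjusted p = 0.0104) in Cpt2L-/- livers and -0.46 (SE 0.36, adjusted p = 0.364) in DKO against Rab30L-/- livers. The 10 endothelial markers did not rise beside it, with none called higher and 1 called lower in Cpt2L-/- livers and summed levels of 261 to 291 CPM against 250 to 344 CPM in floxed controls.

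Among contact-system genes, Klkb1, which encodes plasma prekallikrein, fell most in Cpt2L-/- livers. It read 235, 164, 85.6 and 176 CPM in floxed controls, 65.9, 43.6, 41.9 and 33.8 CPM in Cpt2L-/- livers, 226, 211, 169 and 210 CPM in Rab30L-/- livers and 68.1, 98.8, 31.7 and 48.1 CPM in DKO livers. Floxed control 3 lay above the highest Cpt2L-/- library and below the highest DKO library. The log2 fold change was -1.85 (SE 0.29, edgeR adjusted p = 0.000812), and the gene overlaps the annotated Gm45753 on the same strand, so reads of the pair may have been divided. Its neighbour F11, the zymogen that activates factor IX, fell by 1.75 on the log2 scale, and the kininogens Kng1 and Kng2, which carry prekallikrein and release bradykinin, fell by 0.84 and 0.54. In DKO against Rab30L-/- livers the log2 fold changes were -1.72 for Klkb1, -1.93 for F11, -1.10 for Kng1 and -0.86 for Kng2, and each passed the thresholds.

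Factor XII (F12), which starts the contact pathway, stood out by its small change, and was singled out after its values were seen. It read 397, 621, 740 and 676 CPM in floxed controls, 570, 578, 621 and 650 CPM in Cpt2L-/- livers, 701, 693, 691 and 660 CPM in Rab30L-/- livers and 394, 389, 507 and 438 CPM in DKO livers. The Cpt2L-/- libraries lay inside the range of the floxed controls (log2 fold change -0.02, SE 0.19, edgeR adjusted p = 0.952). All DKO libraries lay below all Rab30L-/- libraries (log2 fold change -0.67, SE 0.14, adjusted p = 0.0038). Of the vitamin K cycle, Vkorc1 fell by 0.83 and 1.14 on the log2 scale in the respective comparisons, and Ggcx was at -0.43 (adjusted p = 0.0824) in Cpt2L-/- livers and fell by 0.85 in DKO livers. Vkorc1 shares its strand and locus with the annotated Gm21974, and its values are uncertain to that extent. Of the 8 gamma-carboxylated members, 6 fell in Cpt2L-/- livers, Gas6 rose and Pros1 was not called (-0.41, adjusted p = 0.0788).

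**Figure D4:**
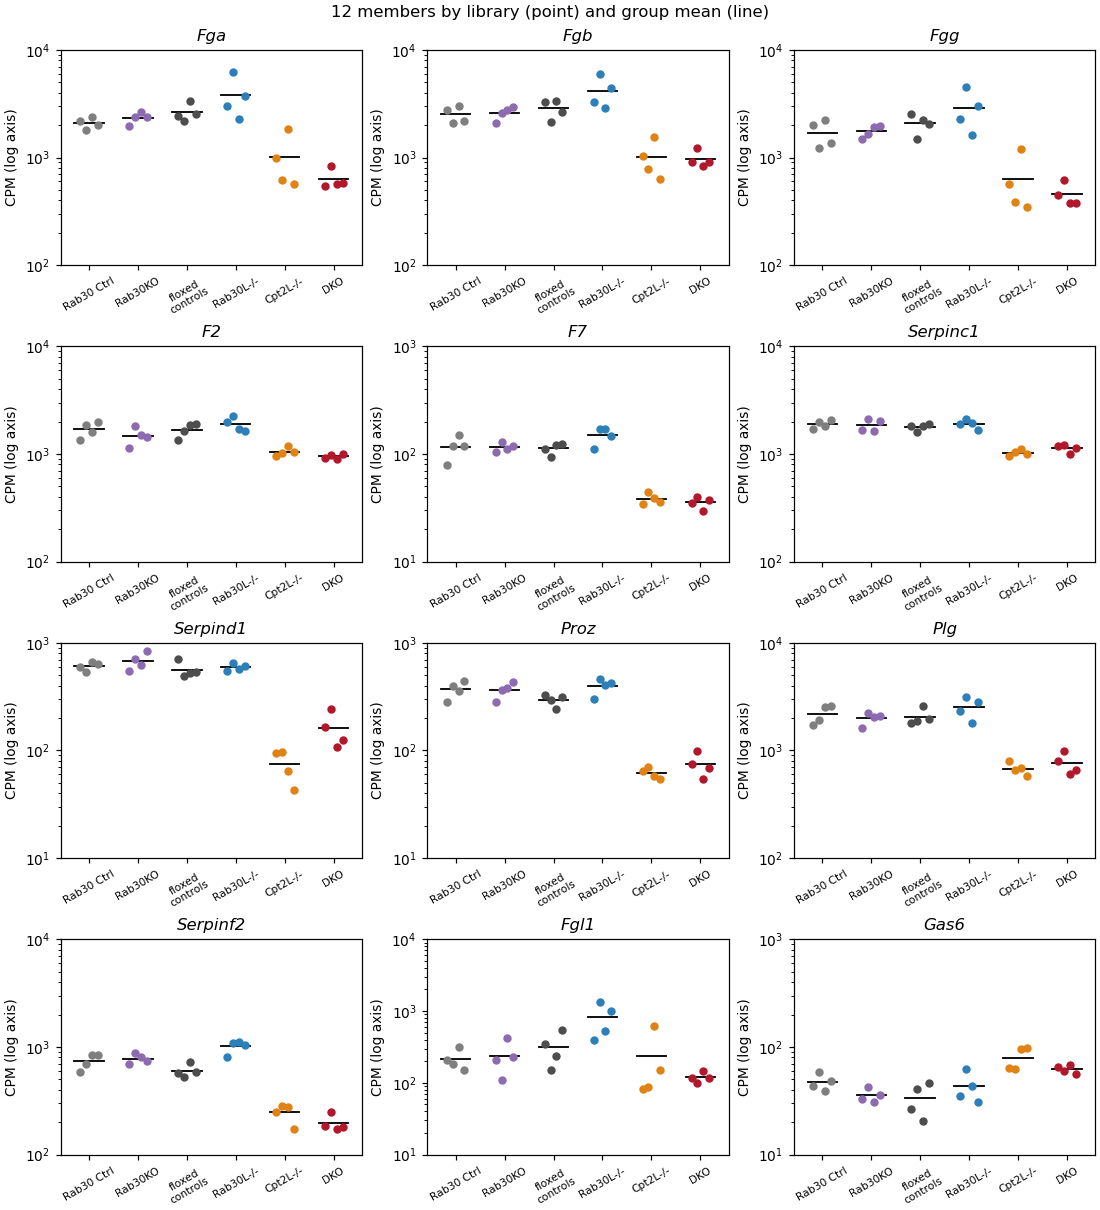
CPM by library (points, log axis) and group mean (lines) of 12 members in the 6 groups, 4 livers each. Serpind1 and Proz show the widest gap between Cpt2L-/- libraries and floxed controls, Fgl1 the widest scatter within Cpt2L-/- livers, and Gas6 the opposite direction.

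In Cpt2L-/- livers against floxed controls, the members with the largest falls were the anticoagulants Serpind1 and Proz, whereas Fgl1 and Fgg fell most in DKO against Rab30L-/- livers. Heparin cofactor II (Serpind1), a thrombin inhibitor, read 713, 487, 522 and 537 CPM in floxed controls and 94.1, 95.9, 64.5 and 43.1 CPM in Cpt2L-/- livers. It read 549, 652, 575 and 603 CPM in Rab30L-/- livers and 166, 243, 108 and 125 CPM in DKO livers. The Cpt2L-/- libraries were the lowest 4 of the series, the DKO libraries came next, and neither overlapped its comparison group. Its log2 fold change was -2.93 (SE 0.25, edgeR adjusted p = 7.4e-06), or 7.64-fold lower, in Cpt2L-/- livers, and -1.89 (SE 0.23, adjusted p = 0.000204) in DKO against Rab30L-/- livers. Against floxed controls it was -1.82 in DKO livers (SE 0.24, adjusted p = 0.000513). The gene overlaps Pi4ka on the opposite strand, and the use of strand in counting is not stated.

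Protein Z (Proz), which binds the inhibitor Serpina10 to factor Xa, read 326, 295, 244 and 314 CPM in floxed controls, 64.4, 69.6, 58.5 and 54.4 CPM in Cpt2L-/- livers, 298, 459, 407 and 426 CPM in Rab30L-/- livers and 74.3, 98.8, 54.8 and 68.5 CPM in DKO livers. The highest value with the Cpt2 knockout was 98.8 CPM and the lowest without it 244 CPM. Its log2 fold change was -2.27 (SE 0.15, edgeR adjusted p = 1.43e-06) in Cpt2L-/- livers and -2.42 (SE 0.20, adjusted p = 2.15e-05) in DKO against Rab30L-/- livers. Against floxed controls it was -2.0 in DKO livers (SE 0.19, adjusted p = 6.22e-05). Its partner Serpina10 fell by 0.62 and 1.53 on the log2 scale, and protein C (Proc), which degrades factors Va and VIIIa once activated, by 0.93 and 1.09.

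Antithrombin (Serpinc1), the main plasma inhibitor of thrombin, read 1825, 1607, 1807 and 1917 CPM in floxed controls, 953, 1051, 1114 and 1006 CPM in Cpt2L-/- livers, 1912, 2128, 1945 and 1672 CPM in Rab30L-/- livers and 1188, 1220, 1006 and 1126 CPM in DKO livers. Every Cpt2L-/- library lay below every floxed control and every DKO library below every Rab30L-/- library. For antithrombin the log2 fold change was -0.81 (SE 0.14, edgeR adjusted p = 0.00122) in Cpt2L-/- livers and -0.75 (SE 0.15, adjusted p = 0.00281) in DKO against Rab30L-/- livers. Thrombomodulin (Thbd), Tfpi and protein S (Pros1) passed the thresholds in neither, and the endothelial protein C receptor (Procr) was too low to be tested there.

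Plasminogen (Plg), the precursor of plasmin, read 1782, 1880, 2611 and 1971 CPM in floxed controls, 801, 652, 682 and 581 CPM in Cpt2L-/- livers, 2306, 3156, 1804 and 2830 CPM in Rab30L-/- livers and 792, 986, 602 and 660 CPM in DKO livers. The highest library with the Cpt2 knockout stood at 986 CPM and the lowest without it at 1616 CPM. The log2 fold change was -1.61 (SE 0.18, edgeR adjusted p = 4.1e-05) in Cpt2L-/- livers, -1.73 (SE 0.22, adjusted p = 0.000244) in DKO against Rab30L-/- livers and -1.45 (SE 0.20, adjusted p = 0.000656) in DKO livers against floxed controls.

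The inhibitors of fibrinolysis fell as well. Alpha-2-antiplasmin (Serpinf2), the plasmin inhibitor, read 570, 521, 722 and 582 CPM in floxed controls, 251, 283, 279 and 172 CPM in Cpt2L-/- livers, 805, 1086, 1121 and 1045 CPM in Rab30L-/- livers and 186, 249, 173 and 181 CPM in DKO livers. All Rab30L-/- libraries exceeded all floxed controls, and all libraries with the Cpt2 knockout lay below both. Serpinf2 had a log2 fold change of -1.29 (SE 0.18, edgeR adjusted p = 0.000245) in Cpt2L-/- livers and -2.36 (SE 0.17, adjusted p = 1.48e-05) in DKO against Rab30L-/- livers.

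Cpb2, whose product trims plasmin-binding lysines from fibrin, read 399, 191, 224 and 292 CPM in floxed controls, 49.5, 72.9, 106 and 67.3 CPM in Cpt2L-/- livers, 276, 523, 195 and 298 CPM in Rab30L-/- livers and 98.9, 106, 81.4 and 128 CPM in DKO livers. The groups did not overlap in either comparison. The log2 fold change of Cpb2 was -1.92 (SE 0.26, edgeR adjusted p = 0.000219) in Cpt2L-/- livers and -1.64 (SE 0.28, adjusted p = 0.00193) in DKO against Rab30L-/- livers.

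The urokinase receptor Plaur, a myeloid product, was among the rarest transcripts tested. It read 0.349, 0.532, 1.32 and 0.381 CPM in floxed controls, 0.897, 2.08, 2.14 and 1.87 CPM in Cpt2L-/- livers, 0.377, 0.742, 1.09 and 1.06 CPM in Rab30L-/- livers and 0.698, 1.10, 4.03 and 2.11 CPM in DKO livers. The floxed controls and Cpt2L-/- livers overlapped. Its log2 fold change of 1.40 (SE 0.46, edgeR adjusted p = 0.0423) in Cpt2L-/- livers lost the call when any 1 of 6 libraries was left out (floxed controls 1, 2 or 4, or Cpt2L-/- 2, 3 or 4), where the adjusted p was 0.0877 to 0.116. Of 10 Kupffer cell and macrophage markers 1 was called higher and 3 lower in Cpt2L-/- livers, with sums of 205 to 292 CPM against 208 to 381 CPM in floxed controls. Urokinase itself (Plau) was at 1.25 (adjusted p = 0.0607).

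The 3 members outside the classes differed. Hrg, a plasma glycoprotein that binds fibrinogen and plasminogen, fell by 1.44 on the log2 scale in Cpt2L-/- livers (edgeR adjusted p = 8.03e-05) and by 1.27 in DKO against Rab30L-/- livers (adjusted p = 0.00311). Gas6, a vitamin K-dependent ligand of the TAM receptor kinases, read 26.6, 41.0, 20.6 and 46.5 CPM in floxed controls, 64.2, 62.8, 94.9 and 97.2 CPM in Cpt2L-/- livers, 34.8, 62.4, 43.7 and 30.9 CPM in Rab30L-/- livers and 65.1, 60.0, 67.8 and 56.1 CPM in DKO livers. All libraries with the Cpt2 knockout lay above all floxed controls, while Rab30L-/- library 2 reached into the DKO range. Gas6 had a log2 fold change of 1.23 (SE 0.25, adjusted p = 0.00325) in Cpt2L-/- livers and 0.88 (SE 0.22, adjusted p = 0.0197) in DKO livers against the same controls, and 0.54 (SE 0.19, adjusted p = 0.0538) in DKO against Rab30L-/- livers, where it was 0.78 and called without Rab30L-/- library 2 (adjusted p = 0.00461).

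Fgl1, a liver-secreted relative of fibrinogen, was variable within groups. It read 347, 151, 235 and 536 CPM in floxed controls, 82.8, 87.9, 624 and 149 CPM in Cpt2L-/- livers, 393, 1347, 528 and 1008 CPM in Rab30L-/- livers and 116, 98.7, 145 and 116 CPM in DKO livers. Cpt2L-/- library 3 exceeded every floxed control, and the coefficient of variation in that group was 110%, against a median of 14.9% over the 29 members at 10 CPM or more. DKO and Rab30L-/- libraries did not overlap (log2 fold change -2.78, SE 0.37, edgeR adjusted p = 0.000668). DKO livers also lay below floxed controls (-1.42, SE 0.32, adjusted p = 0.0137), a call lost with no filter on low counts (adjusted p = 0.0788) and in a fit over all 24 libraries (adjusted p = 0.105). Cpt2L-/- livers were at -0.45 (SE 0.75, adjusted p = 0.719), and without library 3 they were at -1.58 and called (SE 0.42, adjusted p = 0.0284).

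None of 37 members tested was called in Rab30KO against Rab30 Ctrl livers by edgeR, with 0.022% of all genes called and a median log2 fold change of 0.04. At an unadjusted p under 0.05 there were 2, Gas6 at -0.41 and Tfpi at 0.64, where 2.21% of all genes passed, and DESeq2 called none where it called 0.0732% of all genes. Fga read 2181, 1796, 2356 and 2014 CPM in Rab30 Ctrl livers and 1967, 2390, 2630 and 2365 CPM in Rab30KO livers. F2 read 1363, 1863, 1617 and 1972 CPM in the former and 1125, 1840, 1510 and 1450 CPM in the latter. Fgb stood at 2107 to 3008 CPM in Rab30 Ctrl and 2108 to 2940 CPM in Rab30KO livers, Fgg at 1216 to 2227 and 1481 to 1982 CPM, Serpinc1 at 1719 to 2065 and 1637 to 2128 CPM, and Plg at 1722 to 2570 and 1616 to 2234 CPM. The groups overlapped for all of these genes.

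In Rab30L-/- livers against floxed controls, none of 36 members was called by edgeR, with 0.479% of all genes called. The median log2 fold change of the members was 0.30, and 0.17 without Rab30L-/- library 2, with all genes near 0. At an unadjusted p under 0.05 there were 9, of which 8 were higher and Thbd lower, where 11.2% of all genes passed. DESeq2 called 2 members where it called 2.23% of all genes, Serpinf2 (log2 fold change 0.74, adjusted p = 0.000981) and Serpina10 (0.85, adjusted p = 0.0106). In edgeR's test Serpinf2 was at 0.75 (SE 0.17, adjusted p = 0.1) and Serpina10 at 0.86 (SE 0.20, adjusted p = 0.109). Serpina10 read 111, 85.6, 86.2 and 108 CPM in floxed controls and 122, 249, 162 and 179 CPM in Rab30L-/- livers. Of the 10 acute-phase genes tested beside them, none was called and the median was 1.19, or 0.48 without Rab30L-/- library 2. Of 10 Kupffer cell and macrophage markers none was called, with log2 fold changes of 0.25 to 2.64 and a median of 0.61. Their sums were 264 to 750 CPM in Rab30L-/- livers and 208 to 381 CPM in floxed controls. The 10 endothelial markers had a median of -0.22, with none called. The part of these lists in the result was not tested.

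The loss of Rab30 on top of Cpt2 was compared in DKO against Cpt2L-/- livers. None of 36 members was called by edgeR, where 2.71% of all genes were, and the median log2 fold change was 0.13. At an unadjusted p under 0.05 there were 9 where 21.2% of all genes passed. DESeq2 called 4 members where it called 7.76% of all genes: Serpind1 (1.12, adjusted p = 0.00466), Hrg (0.57, adjusted p = 0.0172) and F9 (0.38, adjusted p = 0.0466) were higher in DKO livers, and F12 (-0.47, adjusted p = 0.00378) was lower. In edgeR's test Serpind1 was at 1.11 (SE 0.31, adjusted p = 0.0939) and F12 at -0.47 (SE 0.13, adjusted p = 0.0651), and neither was called. Fga was at -0.65 (SE 0.35, adjusted p = 0.311), and at -0.19 (adjusted p = 0.674) without Cpt2L-/- library 3.

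The interaction asked whether the effect of losing Rab30 differed with and without Cpt2. Of 37 members tested, 1 was called, where 4.06% of all 14063 genes were. Serpinf2 had an interaction of -1.06 on the log2 scale (SE 0.25, edgeR adjusted p = 0.023). It stood at 1014 ± 143 CPM (SD, n = 4) in Rab30L-/- against 599 ± 86.2 CPM in floxed controls, and at 197 ± 34.8 CPM in DKO against 246 ± 51.4 CPM in Cpt2L-/- livers. Over the other settings the adjusted p ran from 0.00177 to 0.0502, and the call was lost without Cpt2L-/- library 2. Serpind1 (1.05, adjusted p = 0.0986), Serpina10 (-0.91, adjusted p = 0.0601) and F2r (-1.29, adjusted p = 0.0993) missed the threshold in edgeR's test and passed it in DESeq2. With Serpinf2 these were 4 members called by DESeq2, where it called 7.68% of all genes. At an unadjusted p under 0.05 there were 11 members, where 21.7% of all genes passed.

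Other genes of haemostasis, from a list that held no member, moved in both directions in Cpt2L-/- livers, with 4 higher and 5 lower of 21 tested. F2rl1, the protease-activated receptor PAR2 and 1 of the 4 higher, was at 4.67 on the log2 scale (edgeR adjusted p = 0.000213). It passed the filter on low counts only where Cpt2L-/- livers took part and was too low to be tested in the other comparisons. Its entry into the test and its rise are therefore not independent. Anxa2 and S100a10, which form a plasminogen-binding complex at the cell surface, rose by 2.23 and 1.92. Of 19 other secreted liver proteins 15 fell and 1 rose, with Serpina6 at -4.04 and Serpina7 at 2.60, the plasma carriers of corticosteroids and thyroxine, and their median log2 fold change of -0.94 lay beside the -0.82 of the members. Of 10 acute-phase genes 3 fell (Saa3 -3.02, Itih3 -1.13, Hp -1.08), with a median of -1.11 over the list. Of 16 transcription factors and receptors of the hepatocyte 4 fell: Nr0b2 at -3.94, the interleukin-6 receptor Il6ra at -1.88, Nr5a2 at -0.61 and Cebpa at -0.54. Of the remaining marker lists, none of 8 stellate cell genes and none of 3 platelet genes tested was called, while 1 of 4 bile duct genes and 3 of 4 blood cell genes fell.

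In DKO against Rab30L-/- livers, 3 of 19 tested genes of the wider haemostasis list rose and 9 fell, and of 19 secreted liver proteins 15 fell and 1 rose (Serpina7, 1.88), with a median of -0.81. The acute-phase genes fell in 8 of 10 cases, with a median of -3.04. Without Rab30L-/- library 2, 8 fell and the median was -1.69, and without DKO library 1 or 3, 5 fell. Of the transcription factor and receptor list 1 rose (Il6st, 0.51) and 8 fell, with Nr0b2 at -3.37, Onecut1 at -1.99, Foxa2 at -1.39 and Cebpa at -1.20. Kupffer cell and macrophage markers fell in 8 of 10 cases there and rose in 1, and their sums were 186 to 252 CPM in DKO and 264 to 750 CPM in Rab30L-/- livers. Their part in the members' values was not tested.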

How the data were processed

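Total RNA was extracted with TRIzol and a column kit from frozen livers, and a commercial provider made and sequenced the libraries. The submitters' processing notes name HISAT2, DESeq2 and GRCm38 (mm10) without versions. The counting program, annotation and use of strand are not given in the sources used here. The deposited table holds raw counts per gene and library, from which the authors also gave FPKM (counts scaled by gene length and library size), used here only to order genes by level. The authors' normalised table and their own comparisons (log2 fold changes and p-values) were not used. Each pair of groups was fitted on its own 8 libraries, and the interaction on 16, with edgeR 4.0.16 (R 4.3.3, filterByExpr, TMM, robust quasi-likelihood test, Benjamini-Hochberg adjustment over all genes tested), and calls needed an adjusted p under 0.05 and a 1.2-fold change. The code was tested on simulated data. Alternatives were DESeq2 1.42.0, its size factors, other filters, a fit over all 24 libraries and single libraries left out. A CPM is a count per 1000000 after TMM. Replicates are separate livers, numbered in accession order.

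Values in every library are given for members past the thresholds with the 5 largest rises and falls in each comparison, and for F2, Fga, Fgb, Fgg, Serpinc1 and Plg. Genes outside the 39 come from gene lists, at most the 4 with the largest changes in each, with Rab30, Cpt2 and Alb as checks of the samples. The values of 1 listed gene are not reported here. F12 and Serpina10 were added after their values were seen. The members and lists were chosen with earlier results of these data known. Of the members, 12 overlap another annotated gene (F5, Fgg, F13a1, F8, Klkb1, Kng2, Vkorc1, Serpinc1, Serpind1, Plg, Cpb2 and Gas6), so their counts may hold or lose shared reads. Promoter sequences are from RefSeq (GRCm38.p6), whose starts can differ from the start of the gene in the table.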

Additional observations from a re-analysis of the deposited data

Results flagged for a closer look

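Of 228 sets of 4 livers examined (a member in a group), 15 held 1 library far from the other 3 by Dixon's test at the 95% level, which chance does in about 1 in 20. In DKO livers, library 2 was high for Fga (830 CPM against 541 to 586 CPM), Kng2 (264 against 197 to 205 CPM) and Serpinf2 (249 against 173 to 186 CPM), and library 3 was high for Plat (0.846 against 0.349 to 0.387 CPM). In Cpt2L-/- livers, library 3 was high for Fgl1 (624 against 82.8 to 149 CPM) and low for Plau (0.971 against 1.12 CPM and above), and library 2 was high for Plat (1.13 against 0.518 to 0.577 CPM). In Rab30L-/- livers, library 2 was high for Kng1 (3428 against 2033 to 2227 CPM), and library 3 was high for Vkorc1 (17.5 against 8.88 to 9.48 CPM) and low for F13b (216 against 232 to 233 CPM). In floxed controls, library 1 was high for F2r (26.1 against 15 to 16.1 CPM) and library 3 low for Tfpi (3.21 against 7.27 to 8.0 CPM). In the whole-body groups, Rab30KO library 4 was high for F9 (434 against 280 to 306 CPM), Rab30KO library 3 for Procr (6.14 against 0.259 to 1.07 CPM) and Rab30 Ctrl library 2 for Vkorc1 (14.8 against 7.77 to 8.16 CPM).

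Serpinf2 was called for the interaction of Rab30 and Cpt2 loss, at -1.06 on the log2 scale (edgeR adjusted p = 0.023, 4 livers in each of 4 groups). Neither Rab30L-/- against floxed controls nor DKO against Cpt2L-/- livers gave a call for Serpinf2 in edgeR's test. For the interaction it was the only 1 of 37 members tested to be called, no more than the 4.06% of all genes called. The call was lost without Cpt2L-/- library 2 (edgeR adjusted p = 0.0502).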

How the results depend on the processing

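The counts of members called in the 3 comparisons of livers with and without Cpt2 stayed within 1.5 times their values under every alternative run. With single libraries left out they ran from 22 to 27 (Cpt2L-/- against floxed controls), 18 to 22 (DKO against floxed controls) and 24 to 26 (DKO against Rab30L-/-). The median of the last was -1.07 to -0.89. The other comparisons, with 0 or 1 member called, did not stay there. An unadjusted p gave 2 in Rab30KO, 9 in Rab30L-/-, 9 in DKO against Cpt2L-/- and 11 in the interaction, where 21.7% of all genes passed. DESeq2 gave 2, 4 and 4 in the last 3 of these, and no filter on low counts gave 2, 1 and 2. A fit over all 24 libraries gave 2 in Rab30L-/- (Serpinf2 and Serpina10) and 1 in DKO against Cpt2L-/- (Serpind1). With single libraries left out these ran from 0 to 1 in Rab30L-/-, 0 to 2 in DKO against Cpt2L-/- (2 without DKO library 3, F12 and F2r) and 0 to 2 in the interaction (0 without Cpt2L-/- library 2). The cause was not tested. Of the values of single members under alternatives, 564 kept their side of the threshold, 16 came to pass it, 12 ceased to and none reversed. These members were picked mainly for the largest called changes in each comparison, so the counts do not describe the members at large. Gas6 in DKO livers against floxed controls lost its call without DKO library 1 (adjusted p = 0.0509, edgeR). No paired analysis was possible because the labels give no shared replicate numbers. With 4 livers a group, members under about 1 CPM rest on few counts.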
